A study of Mus musculus with 12 samples.

Results

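Carboxylesterase genes were followed across the livers of 12 mice: Ces1c, Ces1d, Ces1e, Ces1f, Ces1g, Ces2a, Ces2c, Ces2e, Ces3a and Ces3b. The genes were taken by name from the array, and 10 of 10 were present and tested, among 20576 genes tested and 34607 distinct names on the array. The family was chosen by the signal of Ces1g, which differed between the E2F1 and E2F2 knockout groups, and the other genes came with it. Differences between those knockout groups are therefore descriptions without a test. The comparisons with wild type use the same knockout arrays and are not independent of that choice.

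Carboxylesterases are serine hydrolases, mostly of the lumen of the endoplasmic reticulum, that cleave ester and amide bonds. In liver they activate or clear ester drugs, and several of them hydrolyse stored triglyceride and cholesteryl ester, which feeds lipid into very-low-density lipoprotein (VLDL) and into oxidation. The mouse genes arose by tandem duplication, so neighbouring genes are close in sequence and their probes can be hard to tell apart.

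Each group held 4 mice with 1 array per mouse. The wild type mice were 129/Sv x C57BL/6, and the other groups were E2f1-/- and E2f2-/- mice, which lack a member of the E2F family of cell cycle transcription factors. Per the treatment protocol all mice, controls included, received 25 mg/kg of the liver carcinogen diethylnitrosamine on postnatal day 14 and, from weaning at 1 month, a diet with 60% of its calories from fat for 32 weeks. They were killed at 9 months after a 4-hour fast. For the E2F1 knockout group the source field says vehicle and chow, against the titles, descriptions, characteristics and protocol. Nothing in the labels settles this, and each comparison with that group carries it. Neither sex, nor the hour of killing, nor the deleted part of each gene is stated in the labels.

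The E2f1 probe fell by 0.82 ± 0.19 (SE) on the log2 scale in E2F1 knockout livers against wild type (limma adjusted p = 0.0114), while staying well above background on 4 of 4 arrays. The E2f2 probe did not pass the test in the group labelled E2f2 knockout (log2 change -0.26 ± 0.21, adjusted p = 0.408), and it fell by 1.50 ± 0.21 in E2F1 knockout livers (adjusted p = 0.00141). Whether either probe lies in the deleted part is not known, so this does not settle the labels. The latter group is called E2f2-labelled from here on.

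The 75th percentile of an array's signal lay between 119.2 and 238.3 intensity units, and 44.8 to 54.5% of probes were well above background. All 8 hepatocyte markers were tested, and their summed signal, in multiples of the 75th percentile, ranged from 6006 to 8458 in wild type, from 6490 to 9079 in E2F1 knockout livers and from 5875 to 8771 in E2f2-labelled livers. Of the 8, 3 were called higher in E2F1 knockout (Cps1 1.13, Tat 1.51 and Tdo2 1.07) and 1 in E2f2-labelled livers (Tat 1.20), with medians of 0.42 and 0.39. Over all genes tested, 13.2% were called higher and 7.41% lower in E2F1 knockout, and 14.6% and 7.58% in E2f2-labelled livers. Some livers stood apart by other lists. The 8 male-biased liver genes summed to 292, 453, 1226 and 304 in wild type replicates 1 to 4, against 1264 to 1791 in E2F1 knockout livers and 1312 to 2011 in E2f2-labelled livers. Their limma calls were 7 of 8 higher in E2F1 knockout livers and 8 of 8 higher in E2f2-labelled livers. The 8 female-biased genes on the array, of which A1bg was never above background, summed to 159 to 459 in wild type, 125 to 217 in E2F1 knockout livers and 44.4 to 97.8 in E2f2-labelled livers. Of these, 5 were tested and 3 called lower in each comparison, though Sult2a1 and Cux2 entered the test through wild type arrays alone. The 5 cholangiocyte markers, of which Epcam was never above background, summed to 22.5 and 37.6 in wild type replicates 1 and 2, to 2.50 and 8.90 in replicates 3 and 4, and to 2.18 to 5.17 in the other 8 livers. Spp1 made up most of these sums, at 4.42, 5.20, 1.03 and 3.01 log2 units above the 75th percentile in wild type replicates 1 to 4. Among wild type livers Sox9 was also highest in replicates 1 and 2 (-0.05 and -0.64), while Krt19 was highest in replicate 4 (-2.13). Likewise, Mup20 made up most of the male-biased sums and Cyp2a4 most of the female-biased ones. The 7 adipocyte markers summed to 57.6 in E2F1 knockout replicate 1 and to 2.41 to 5.15 in its other replicates, with 14.4 to 32.2 in wild type and 1.28 to 2.63 in E2f2-labelled livers. The part of these differences in the results was not tested.

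Carboxylesterase genes were called higher more often than lower in both knockout groups. In E2F1 knockout livers 7 of 10 rose (Ces1c, Ces1d, Ces1e, Ces1g, Ces2a, Ces3a, Ces3b) and Ces2e fell, at a limma adjusted p under 0.05 over all 20576 genes. In that comparison 20.6% of all genes were called, 13.2% higher and 7.41% lower. In E2f2-labelled livers 5 of 10 rose (Ces1c, Ces1d, Ces2a, Ces3a, Ces3b) and Ces2e fell, against 22.2% of all genes called, 14.6% higher and 7.58% lower. The median log2 change of the 10 genes was 1.95 in E2F1 knockout livers and 1.11 in E2f2-labelled livers, against medians of 0.13 and 0.18 over all genes tested. Both comparisons share the 4 wild type livers, so their values stand side by side and do not support each other. Quantile normalization lowered the median of all genes to 0.03 and 0.07, and changed the direction of none of the 10 genes.

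**Figure D1:**
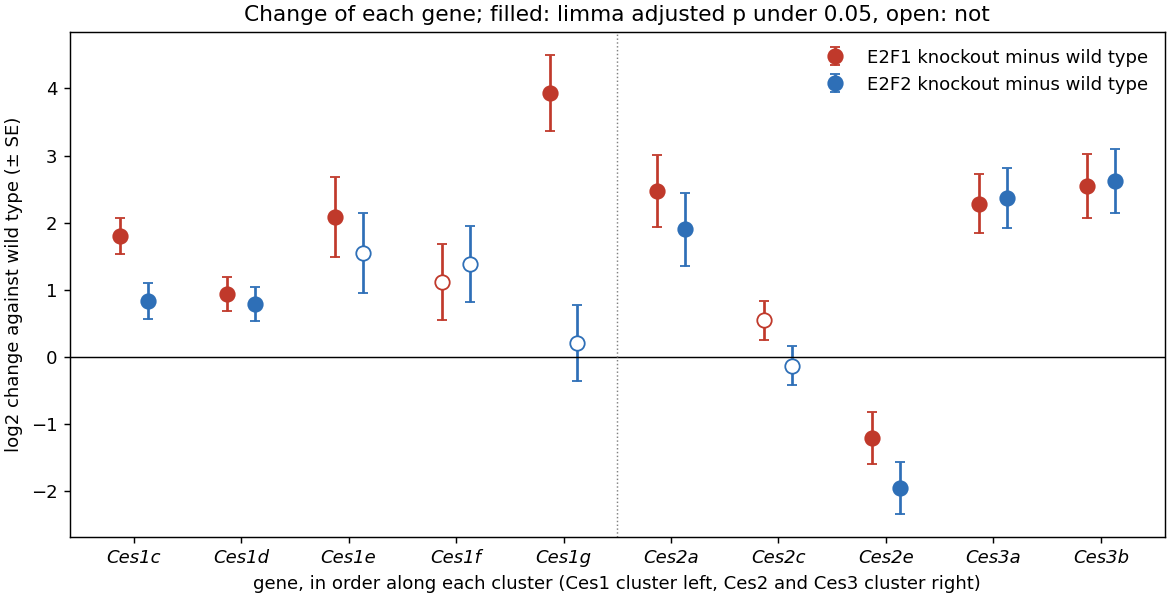
Log2 change against wild type (y axis, ± SE from limma, 4 livers per group) of each carboxylesterase gene (x axis) in E2F1 knockout livers (red) and E2f2-labelled livers (blue); filled points have an adjusted p under 0.05. Ces1g stands at 3.93 in E2F1 knockout livers and at 0.21 in E2f2-labelled livers, Ces3a and Ces3b lie above 2 in both, and Ces2e lies below 0 in both.

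The number of calls moved with single arrays. In 6 of the 10 genes (Ces1e, Ces1f, Ces1g, Ces2a, Ces3a and Ces3b) the wild type SD was between 1.19 and 1.41, and replicate 3 was the highest wild type liver for each of them. Without wild type replicate 3, 9 genes were called in E2F1 knockout livers and 8 in E2f2-labelled livers, while calls over all genes went from 4234 and 4565 to 4897 and 5279. Without wild type replicate 1 or 2, 5 and 3 genes were called. Over all genes the counts were then 3352 and 3438 without replicate 1, and 2538 and 2754 without replicate 2. In E2F1 knockout, 5 genes were called as well without its replicate 3, and 2633 of all genes. In E2f2-labelled livers 3 genes were called without its replicate 3 or 4, and 3042 and 3139 of all genes. Across all 22 alternatives, 5 genes stayed called in E2F1 knockout (Ces1c, Ces1g, Ces2a, Ces3a, Ces3b) and 3 in E2f2-labelled livers (Ces2e, Ces3a, Ces3b). In whole liver, fewer cells of a type and less RNA per cell cannot be told apart.

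**Figure D2:**
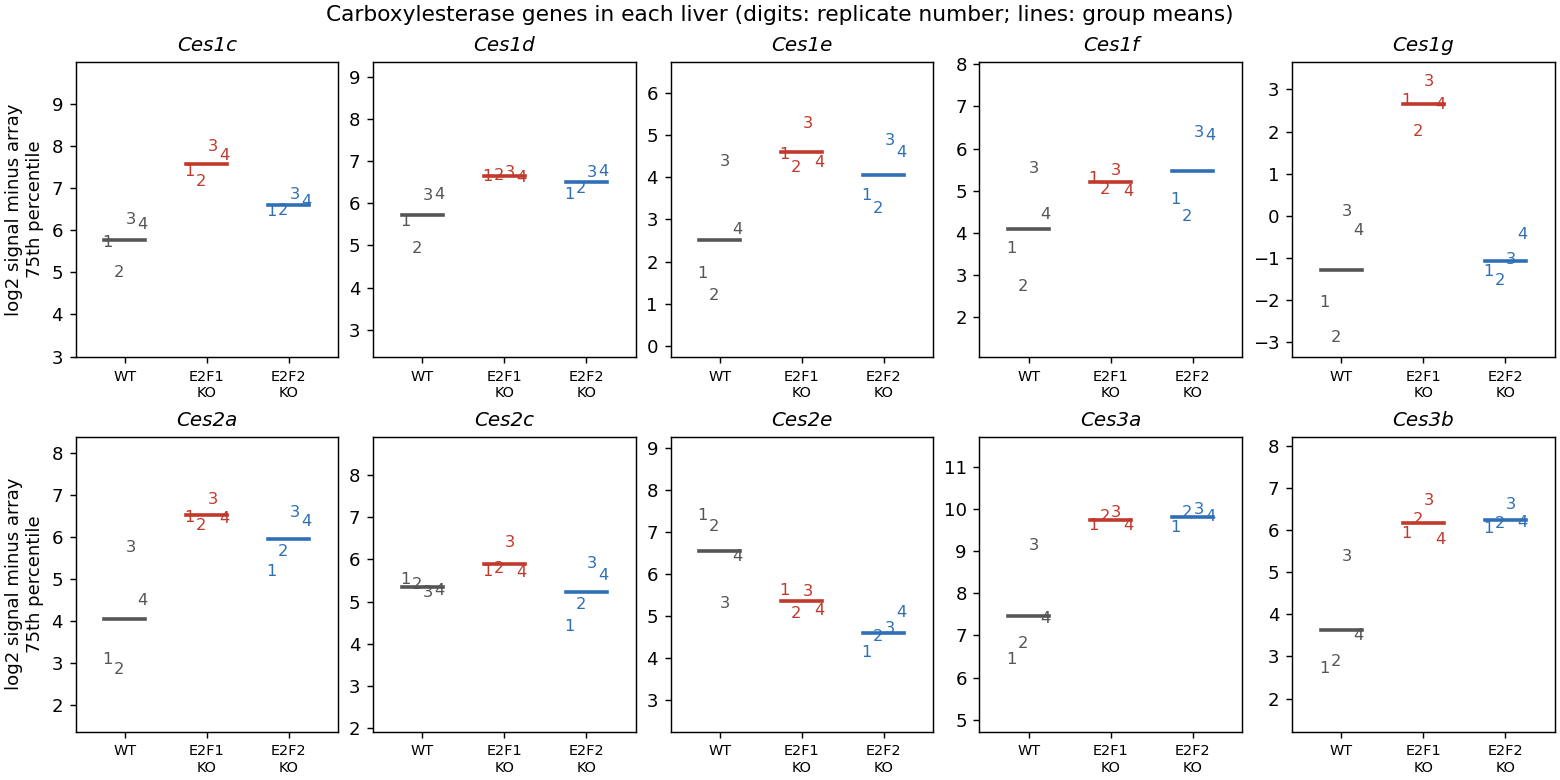
Relative signal (y axis, log2 units above the array's 75th percentile) of each carboxylesterase gene in wild type (grey), E2F1 knockout (red) and E2f2-labelled (blue, drawn as E2F2 KO) livers; digits are replicate numbers and lines are means of 4 livers. For Ces1g the 4 E2F1 knockout livers lie between 2.01 and 3.18 and every other liver at or below 0.11, and wild type replicate 3 is the highest wild type liver for Ces1e, Ces1f, Ces1g, Ces2a, Ces3a and Ces3b.

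Ces1g encodes a liver esterase that hydrolyses triglyceride and cholesteryl ester, and mice without it are known to have raised blood lipids and fatty liver. Values here are log2 processed signal from which the 75th percentile of the array was taken away, called relative signal, so 0 equals that percentile. Ces1g relative signal was -2.05, -2.88, 0.11 and -0.33 in wild type replicates 1 to 4. It was 2.75, 2.01, 3.18 and 2.64 in E2F1 knockout livers. In E2f2-labelled livers it was -1.31, -1.54, -1.03 and -0.43. The E2F1 knockout livers stood above all others, while the E2f2-labelled livers lay inside the wild type range. The group means were -1.29 ± 1.41, 2.65 ± 0.48 and -1.08 ± 0.48 (SD, n = 4 each).

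Against wild type, Ces1g rose by 3.93 ± 0.56 in E2F1 knockout livers, 15.3-fold (adjusted p = 0.00144), the largest rise among the 10 genes. In E2f2-labelled livers its log2 change was 0.21 ± 0.56 (adjusted p = 0.818), and this took the opposite sign without wild type replicate 1 (-0.04), wild type replicate 2 (-0.32) or E2f2-labelled replicate 4 (-0.005). As a description, Ces1g was 3.72 log2 units, or 13.2-fold, higher in E2F1 knockout than in E2f2-labelled livers, the 19th largest such difference of all genes tested. With normexp background correction this difference was 2.97, and the rise over wild type was 3.04. The array identifiers in the deposited file names put 1 array of every group on each of 4 slides, with the same replicate number. On each slide the E2F1 knockout array exceeded the wild type array by 2.98 to 4.89. The E2f2-labelled array differed from the wild type array of its slide by -1.14 to 1.34. Of the 2 position indices in those names, the second was the same for every array of a group, so it and the group cannot be told apart.

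Ces1c encodes the carboxylesterase secreted into mouse plasma. Its relative signal was 5.72, 4.99, 6.25 and 6.14 in wild type livers, 7.38, 7.15, 7.99 and 7.77 in E2F1 knockout livers and 6.45, 6.46, 6.84 and 6.67 in E2f2-labelled livers. The groups did not overlap: every E2F1 knockout liver was above every E2f2-labelled liver, and every E2f2-labelled liver above every wild type liver. Ces1c rose by 1.80 ± 0.27 in E2F1 knockout (3.49-fold, adjusted p = 0.00176) and by 0.83 ± 0.27 in E2f2-labelled livers (1.78-fold, adjusted p = 0.0451). The smaller change was no longer called without wild type replicate 1 (0.81, adjusted p = 0.0887) or 2 (0.57, 0.115), without E2F1 knockout replicate 1 or 4 (0.83, 0.0559 and 0.0558), and without any E2f2-labelled replicate (0.75 to 0.88, adjusted p from 0.0616 to 0.11). It was also lost under quantile normalization (0.61, adjusted p = 0.111) and median centring (0.75, 0.105). The same held with the series matrix values (0.61, 0.117) and without the filter on dim probes (0.0929), in all 12 of 22 alternatives.

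Between the knockout groups, Ces1g and Ces1c were the genes of the family whose groups did not overlap, both lower in E2f2-labelled livers. Of all genes tested, 9.06% did not overlap in that comparison, 3.83% lower and 5.23% higher, and since Ces1g chose the family nothing is read from this count. The other 8 genes differed by -0.74 (Ces2e) to 0.27 (Ces1f) log2 units, with overlapping groups.

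Since Ces1g and Ces1c lie in the same tandem cluster, their promoters from RefSeq (GRCm38.p6, 250 bases before to 50 after the start) are shown side by side, both on the minus strand of chromosome 8, written 5′ to 3′ along the gene. Capitals mark the 7 runs of at least 6 bases that align identically between them, 49 bases in all, the longest of 10.
Ces1g promoter, chr8:93337160-93337459: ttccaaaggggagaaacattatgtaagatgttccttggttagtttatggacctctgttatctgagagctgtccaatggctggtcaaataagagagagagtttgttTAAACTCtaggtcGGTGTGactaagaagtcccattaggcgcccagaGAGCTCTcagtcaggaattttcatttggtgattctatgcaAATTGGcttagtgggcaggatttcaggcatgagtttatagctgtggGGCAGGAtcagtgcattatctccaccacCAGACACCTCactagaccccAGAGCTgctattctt
Ces1c promoter, chr8:93131234-93131533: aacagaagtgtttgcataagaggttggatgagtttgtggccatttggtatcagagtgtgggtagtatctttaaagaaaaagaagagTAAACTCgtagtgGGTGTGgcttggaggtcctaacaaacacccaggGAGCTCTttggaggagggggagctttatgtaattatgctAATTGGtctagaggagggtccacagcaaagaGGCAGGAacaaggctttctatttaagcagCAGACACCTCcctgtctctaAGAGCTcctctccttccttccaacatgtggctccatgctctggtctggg
The alignment paired 260 bases, 175 of them identical, which is 51.5% of its length with gaps. Among the 7 of 10 genes with a promoter in the table (Ces1c, Ces1e, Ces1g, Ces2a, Ces2c, Ces2e and Ces3b), identity ranged from 42.9% (Ces1e and Ces3b) to 65.1% (Ces2a and Ces2c).

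The 7 promoters were searched on both strands for short motifs, beside 32851 promoters of the same length. CCAAT was found in 5 of the 7 (37.4% of all promoters). TATAAA was found in 2 (13.6% of all), with its first base at -30 from the start in Ces3b. In Ces1g it lay on the strand opposite to the printed one, and the printed letters TTTATA begin at -26. The half-site AGGTCA of nuclear receptors was in Ces2a only (16.3% of all), and its direct repeat with a gap of 1 base (DR1), whose matches also hold the half-site, was in none (0.0396%). The HNF1 half-site GTTAAT was in Ces3b only (7.10% of all). None of the 7 held the E2F letters TTTCCCGC (1.07% of all), TTTGGCGC (0.514%) or TTTCGCGC (0.323%), which says only that these letters are not in these windows.

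Ces1d encodes the triacylglycerol hydrolase that supplies lipid for VLDL. Its probe and the Ces1c probe, shown because they share bases, both span an intron (build mm9, minus strand of chromosome 8). Capitals mark the 17-base run they share.
Ces1c probe, chr8:95624607-95628058: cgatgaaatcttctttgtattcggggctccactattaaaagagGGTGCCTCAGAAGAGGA
Ces1d probe, chr8:95693648-95694933: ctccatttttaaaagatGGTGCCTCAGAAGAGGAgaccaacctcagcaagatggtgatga
Within the 34 bases where these 60-base probes overlap, 31 match, so a part of either signal could come from the other transcript. How much was not tested. The Ces1c probe also matched the Ces1b probe at 49 of 55 overlapping bases, and the Ces1d probe matched the Ces1h probe at 44 of 54.

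Ces1d relative signal was 5.57, 4.94, 6.19 and 6.20 in wild type livers, 6.64, 6.66, 6.74 and 6.60 in E2F1 knockout livers and 6.21, 6.35, 6.73 and 6.76 in E2f2-labelled livers. Neither knockout group overlapped wild type, though the lowest E2f2-labelled liver lay only just above. The gene rose by 0.93 ± 0.26 in E2F1 knockout (1.91-fold, adjusted p = 0.0235) and by 0.79 ± 0.26 in E2f2-labelled livers (1.73-fold, adjusted p = 0.0451). Both calls were lost under quantile normalization (0.63 and 0.56, adjusted p = 0.0884 and 0.129), with the series matrix values (0.64 and 0.55, 0.091 and 0.135) and without the filter on dim probes (0.0527 and 0.0939). The first ended without wild type replicate 1 (0.88, adjusted p = 0.0571) or 2 (0.67, 0.0519) or E2F1 knockout replicate 3 (0.91, 0.0612). The second ended without wild type replicate 1 (0.74, 0.0981) or 2 (0.53, 0.106), any E2F1 knockout replicate (0.79, 0.0561 to 0.0585), or E2f2-labelled replicate 2 (0.84, 0.0687), 3 (0.72, 0.109) or 4 (0.70, 0.112), and with normexp (0.67, 0.0698) or median centring (0.70, 0.0951), in all 14 of 22 alternatives.

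Ces1e encodes egasyn, the protein that holds beta-glucuronidase in the endoplasmic reticulum. Its relative signal was 1.72, 1.19, 4.37 and 2.76 in wild type livers, 4.55, 4.24, 5.27 and 4.36 in E2F1 knockout livers and 3.56, 3.25, 4.86 and 4.58 in E2f2-labelled livers. Wild type replicate 3 lay among the knockout livers, so both comparisons overlapped. Ces1e rose by 2.09 ± 0.60 in E2F1 knockout (4.26-fold, adjusted p = 0.0278). This call ended without wild type replicate 1 (1.83, adjusted p = 0.0754) or 2 (1.65, 0.0833) or E2F1 knockout replicate 3 (1.87, 0.0837) or 4 (2.17, 0.0521), and without the filter on dim probes (adjusted p = 0.055). The rise was 2.71 without wild type replicate 3. Its change of 1.55 ± 0.60 in E2f2-labelled livers did not pass (adjusted p = 0.0817), but did without wild type replicate 3 (2.17, 0.00545) and with the slide as a block (adjusted p = 0.0109). Gusb, which encodes the beta-glucuronidase that egasyn binds, did not pass in either comparison (-0.21, adjusted p = 0.487, and -0.45, adjusted p = 0.104).

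Ces1f encodes a further liver hydrolase of stored triglyceride. Its relative signal was 3.63, 2.73, 5.52 and 4.44 in wild type livers, 5.28, 5.02, 5.49 and 4.99 in E2F1 knockout livers and 4.80, 4.39, 6.37 and 6.31 in E2f2-labelled livers. Wild type replicate 3 lay just above every E2F1 knockout liver and within the range of the E2f2-labelled livers. Wild type replicate 4 also lay above the lowest E2f2-labelled liver, and E2f2-labelled replicates 1 and 2 lay below replicates 3 and 4. The changes of 1.11 ± 0.57 (adjusted p = 0.194) and 1.38 ± 0.57 (adjusted p = 0.0998) did not pass. Without wild type replicate 3 both passed (1.59, adjusted p = 0.043, and 1.86, 0.0205), and with the slide as a block the second did (adjusted p = 0.0236).

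Ces2a belongs to the second gene cluster, which the files place on the plus strand of chromosome 8. Its relative signal was 3.09, 2.86, 5.74 and 4.48 in wild type livers, 6.47, 6.27, 6.89 and 6.43 in E2F1 knockout livers and 5.17, 5.66, 6.59 and 6.37 in E2f2-labelled livers. All E2F1 knockout livers were above wild type, while wild type replicate 3 lay above E2f2-labelled replicates 1 and 2. Ces2a rose by 2.47 ± 0.54 in E2F1 knockout (5.55-fold, adjusted p = 0.00914) and by 1.90 ± 0.54 in E2f2-labelled livers (3.73-fold, adjusted p = 0.0272). The second did not hold without wild type replicate 1 (1.58, adjusted p = 0.0741) or 2 (1.51, 0.0796) or E2f2-labelled replicate 3 (1.69, 0.0756) or 4 (1.76, 0.0704), and under quantile normalization (1.66, 0.0559). It was also lost with the series matrix values (1.65, 0.0576) and without the filter on dim probes (0.0532).

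Ces2c encodes an acylglycerol hydrolase of liver and intestine. The brightest of its 3 probes gave 5.53, 5.40, 5.21 and 5.25 in wild type livers, 5.72, 5.79, 6.41 and 5.68 in E2F1 knockout livers and 4.42, 4.93, 5.91 and 5.62 in E2f2-labelled livers. Every E2F1 knockout liver was above wild type, and E2f2-labelled livers lay on both sides of it. The changes of 0.55 ± 0.29 (adjusted p = 0.21) and -0.13 ± 0.29 (adjusted p = 0.778) did not pass the test. Its other probes gave -0.48 and -0.46 in E2F1 knockout (adjusted p = 0.607 and 0.588 over all 28442 probes tested) and -1.08 and -1.01 in E2f2-labelled livers (0.185 and 0.182). With the mean of its probes the changes were -0.13 and -0.74, so no direction is given for this gene. By the accessions in the files the brightest probe also reads Ces2b and Ces2d-ps, and the other probes Ces2d-ps. The Ces2b probe shares a 24-base run with a Ces2c probe, and which transcript each signal comes from is uncertain.

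Ces2e, known as a carboxylesterase of intestine, moved the other way. Its brighter probe gave 7.39, 7.14, 5.30 and 6.41 in wild type livers, 5.61, 5.05, 5.59 and 5.14 in E2F1 knockout livers and 4.13, 4.52, 4.71 and 5.08 in E2f2-labelled livers. Every E2f2-labelled liver was below wild type, while wild type replicate 3 lay within the E2F1 knockout range. Ces2e fell by 1.95 ± 0.39 in E2f2-labelled livers (adjusted p = 0.00567) and by 1.21 ± 0.39 in E2F1 knockout (adjusted p = 0.0447). On the 4 slides the E2f2-labelled array was below wild type by 0.59 to 3.26, and the E2F1 knockout array differed by -2.08 to 0.29. The call in E2F1 knockout was lost without any single array except wild type replicate 3 and E2f2-labelled replicate 4 (-0.93 to -1.30, adjusted p from 0.0503 to 0.129). It was lost as well with the slide as a block (adjusted p = 0.0638) and without the filter on dim probes (0.0876).

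The other Ces2e probe was dim, well above background on 6 of 12 arrays (3 wild type, 2 E2F1 knockout and 1 E2f2-labelled). It entered the test through wild type alone, and its differences of -1.83 in E2F1 knockout livers and -2.26 in E2f2-labelled livers are a description, set partly by arrays that were not above background. Among 5 markers of intestinal epithelium Sis was never above background, and Cdh17 was well above it on 3 wild type arrays and on none of the 8 knockout arrays. Their summed signal came mostly from Fabp2. It was 44.1 to 73.9 in wild type livers, 35.7 to 49.5 in E2F1 knockout livers and 40.6 to 73.5 in E2f2-labelled livers. The part of this sum in the Ces2e result was not tested.

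**Figure D3:**
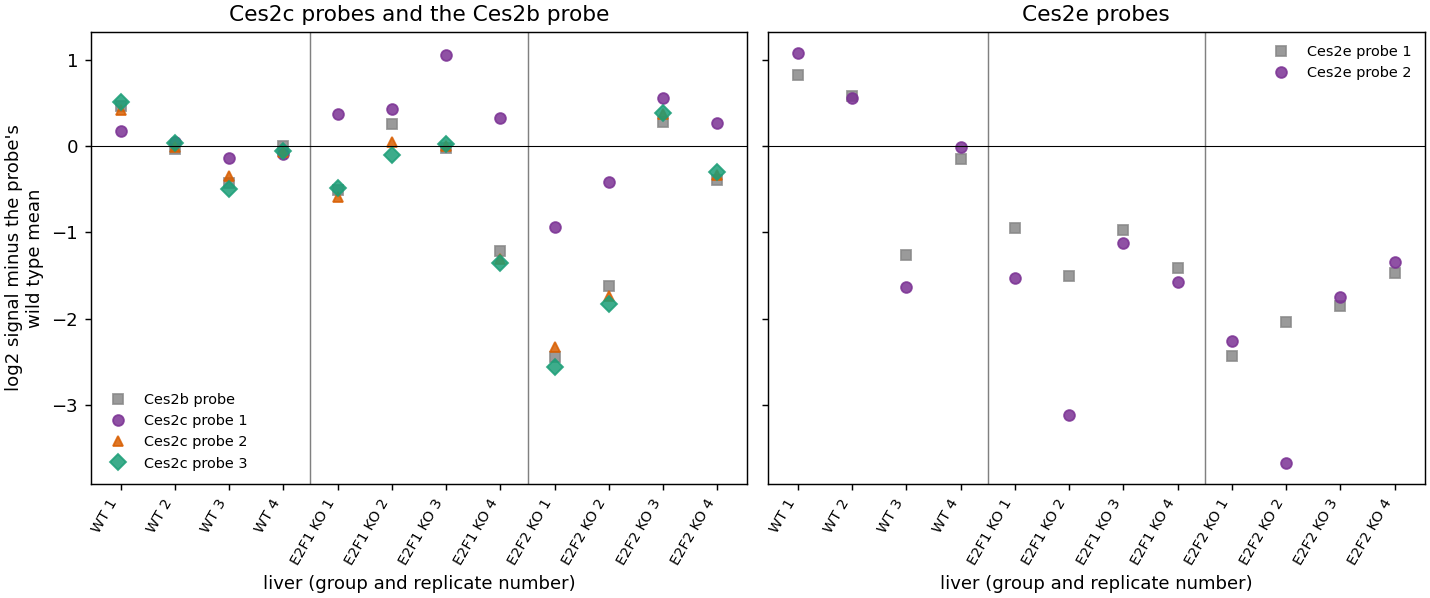
Signal of each Ces2c probe with the Ces2b probe (left) and of both Ces2e probes (right), as log2 signal minus the probe's mean over wild type livers (y axis), in each of the 12 livers (x axis; E2f2-labelled livers drawn as E2F2 KO). The brightest Ces2c probe (purple) lies above 0 in all 4 E2F1 knockout livers while the other Ces2c probes lie near the Ces2b probe, and both Ces2e probes lie below 0 in all 8 knockout livers.

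Ces3a and Ces3b encode carboxylesterases of the liver and sit next to each other. Ces3a relative signal was 6.44, 6.82, 9.14 and 7.41 in wild type livers, 9.61, 9.82, 9.92 and 9.60 in E2F1 knockout livers and 9.57, 9.91, 9.99 and 9.82 in E2f2-labelled livers. Ces3b gave 2.72, 2.89, 5.37 and 3.49 in wild type livers, 5.92, 6.25, 6.71 and 5.78 in E2F1 knockout livers and 6.04, 6.16, 6.60 and 6.17 in E2f2-labelled livers. All 8 knockout livers were above all wild type livers for both genes, and wild type replicate 3 came closest.

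Ces3a rose by 2.28 ± 0.44 in E2F1 knockout (4.87-fold, adjusted p = 0.00522) and by 2.37 ± 0.44 in E2f2-labelled livers (5.16-fold, adjusted p = 0.00433). Ces3b rose by 2.55 ± 0.47 (5.84-fold, adjusted p = 0.00442) and 2.62 ± 0.47 (6.15-fold, adjusted p = 0.00356). Within slides the Ces3b rise ranged from 1.34 to 3.36 in E2F1 knockout livers and from 1.22 to 3.32 in E2f2-labelled livers. The 2 knockout groups differed by only 0.08 (Ces3a) and 0.07 (Ces3b). The Ces3a probe also lists Ces3b accessions in the files, so the signals are not separate evidence for 2 genes.

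By the count of non-overlapping livers, 7 of 10 genes were higher than wild type in E2F1 knockout livers and none lower, against 14.5% and 6.77% of all genes (21.3% together). These were Ces1c, Ces1d, Ces1g, Ces2a, Ces2c, Ces3a and Ces3b. Ces2c is counted by its brightest probe alone, and no direction is given for it. Ces1e, called higher by limma, overlapped. In E2f2-labelled livers 4 were higher (Ces1c, Ces1d, Ces3a, Ces3b) and 1 lower (Ces2e), against 16.8% and 7.05% (23.9% together).

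**Figure D4:**
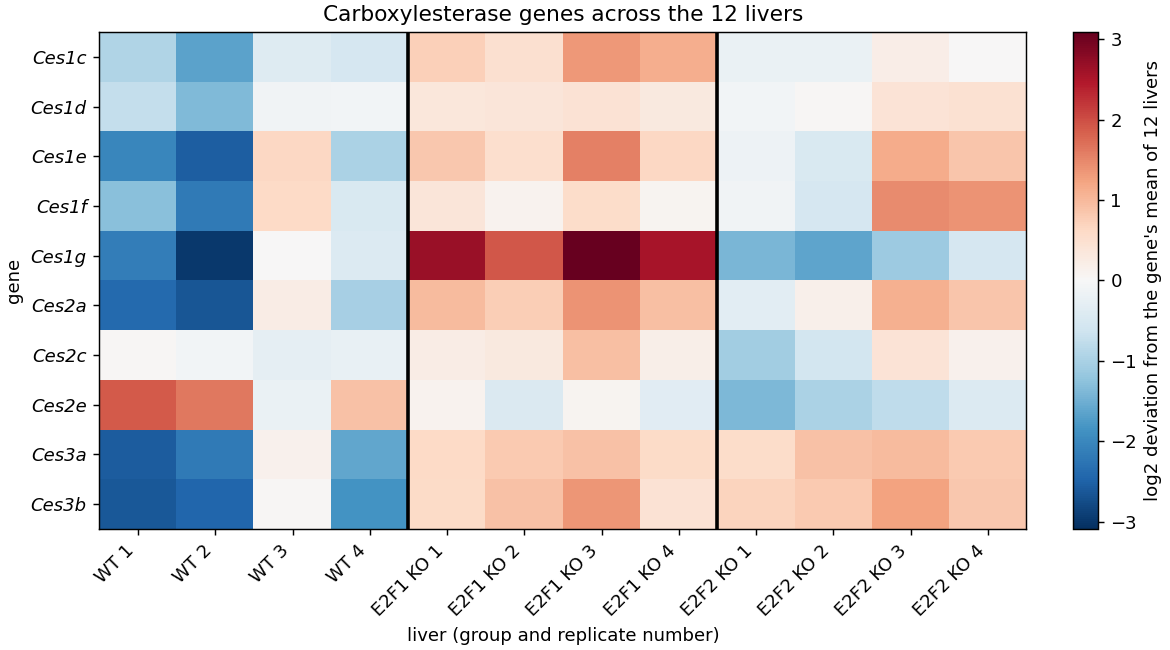
Deviation of each gene (rows) from its mean over 12 livers (columns; E2f2-labelled drawn as E2F2 KO), in log2 units from blue (lower) to red (higher). Wild type replicates 1 and 2 are blue for 8 of the genes and red for Ces2e, wild type replicate 3 is near the knockout livers for most genes, and Ces1g alone is strongly red in the E2F1 knockout livers and blue in the E2f2-labelled livers.

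Around their group means many of the genes also varied together. After each group's mean was taken away, Ces1e and Ces2a had a Pearson r of 0.96 over the 12 livers, Ces3a and Ces3b 0.97, and Ces1g and Ces1d 0.91. Ces2e ran against Ces3a (r = -0.82) and the highest r of Ces2c was 0.48, with Ces2e. These values are a description, and the genes share each array and its scaling.

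Over the 12 livers as a whole, the genes whose pattern was most like that of Ces1g, by Pearson r among 20476 genes measured on all arrays, were a feature that the files name only by its position on chromosome 5 (0.952), Rem1 (0.943), Ndufb8 (0.938), Msmp (0.937) and Scand1 (0.936). Rem1 and Msmp were dim, with mean relative signals of -4.60 and -4.58 in wild type and -4.92 and -4.11 in E2f2-labelled livers. Their r thus rests partly on values near background. Ces1c ranked 22nd (0.902). Ces2a (0.739) and Ces1e (0.733) followed within the family, and Ces2e was lowest (-0.258). After group means were taken away, the r of the 5 leading genes was 0.54 to 0.71, and that of Ces1c 0.88, Ces2a 0.90 and Ces1e 0.89. Here too the wild type livers weighed most, as the SD of Ces1g was 1.41 there and 0.48 in each knockout group.

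Of 9 further carboxylesterase genes on the array, 4 were tested and Ces1a, Ces1h, Ces2f, Ces2h and Ces5a were too dim. None of the 4 was called in E2F1 knockout, where 20.6% of all genes were, against 22.2% in E2f2-labelled livers. In E2f2-labelled livers Ces4a rose by 2.44 ± 0.46 (adjusted p = 0.0045) and Ces2g fell by 0.62 ± 0.19 (adjusted p = 0.0371). Ces4a relative signal was -3.54, -1.44, -2.46 and -2.72 in wild type livers, -3.12, -1.65, -1.95 and -3.56 in E2F1 knockout livers and -0.26, -0.09, 0.10 and -0.15 in E2f2-labelled livers. The E2f2-labelled livers thus stood above the other 8 for Ces4a, where for Ces1g the E2F1 knockout livers did. Ces1b changed by 0.36 (adjusted p = 0.381) and 0.78 (0.0523), and Ces2b by -0.37 (0.672) and -1.05 (0.163).

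Some genes beside the clusters were tested as well. Near the Ces1 cluster, Lpcat2 gave a log2 change of -1.90 in E2F1 knockout (adjusted p = 0.158) and -1.60 in E2f2-labelled livers (0.219), and Nudt21 gave -0.15 (0.604) and -0.44 (0.0987), none of which passed. Next to the Ces2 and Ces3 cluster, Cbfb fell by 0.63 (adjusted p = 0.046) and D230025D16Rik rose by 0.89 (0.0167) in E2F1 knockout. Neither passed in E2f2-labelled livers (-0.43, 0.144, and 0.43, 0.185), and Ciao2b passed in neither comparison (0.13, 0.682, and 0.06, 0.841).

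Other enzymes of lipid ester hydrolysis moved in both directions. Over all genes tested, 13.2% were called higher and 7.41% lower in E2F1 knockout, and 14.6% and 7.58% in E2f2-labelled livers. These shares stand beside the counts of this list and of those that follow, and nothing is read from counts near them. In E2F1 knockout 4 of 14 tested rose: Aadac, an arylacetamide deacetylase that also acts in VLDL lipid supply (1.69 ± 0.20, adjusted p = 0.000573), Mgll, monoglyceride lipase (1.43 ± 0.31, 0.00874), Lipc, hepatic lipase (1.31 ± 0.34, 0.0201) and Pnpla2, adipose triglyceride lipase (0.73 ± 0.16, 0.0106). Lpl, lipoprotein lipase, fell by 2.56 ± 0.38 (0.00167), and Pnpla3, called as well, was at least 4.05-fold lower. No knockout array of Pnpla3 was well above background and it entered the test through wild type alone, so its calls are a description. In E2f2-labelled livers 3 rose (Mgll 1.49, adjusted p = 0.00699; Aadac 0.93, 0.00836; Pnpla2 0.56, 0.0294). There Lpl fell by 3.64 (0.000138), Hilpda, an inhibitor of Pnpla2, by 1.72 (0.0287), Lipa, lysosomal acid lipase, by 0.47 (0.0353), and Pnpla3, the remaining call, was at least 5.10-fold lower. The list's medians were 0.28 and 0.03.

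In VLDL assembly, 3 of 10 genes rose in E2F1 knockout: the diacylglycerol acyltransferases Dgat2 (1.12 ± 0.19, adjusted p = 0.00328) and Dgat1 (0.64 ± 0.15, 0.0115), and Sar1b, which carries lipoproteins out of the endoplasmic reticulum (0.86 ± 0.20, 0.0119). In E2f2-labelled livers Dgat2 (0.90, 0.00797) and Apob (0.41, 0.0447) rose. None of the 10 fell in either comparison, where 7.41% and 7.58% of all genes did, and the medians were 0.43 and 0.22.

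Of 12 transcription factors known to regulate carboxylesterase genes, 5 rose and none fell in E2F1 knockout. They were the xenobiotic receptors Nr1i3, or CAR (2.17 ± 0.50, adjusted p = 0.0118), and Nr1i2, or PXR (1.07 ± 0.20, 0.00442), the fatty acid receptor Ppara (1.26 ± 0.28, 0.00893), the bile acid receptor Nr1h4 (0.89 ± 0.24, 0.022) and the hepatocyte factor Hnf4a (0.68 ± 0.14, 0.00788). In E2f2-labelled livers Nr1h4 (1.20, 0.00581), Ppara (0.91, 0.0339), Rxra, the partner of these receptors (0.86, 0.00911), and Hnf4a (0.79, 0.00388) rose, and Nfe2l2 fell by 0.73 (0.0493). Nr1i3 relative signal was 1.48, 1.87, 4.29 and 3.62 in wild type livers, 4.86, 5.09, 4.77 and 5.22 in E2F1 knockout livers and 3.69, 4.11, 4.31 and 4.24 in E2f2-labelled livers. Wild type replicate 3 was thus the highest wild type liver here too. The medians over the list were 0.64 and 0.43.

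Targets of these receptors were split. Por, the electron donor of cytochromes P450 (2.18 ± 0.33, adjusted p = 0.00187), Alas1, which starts haem synthesis (1.89 ± 0.34, 0.00397), and the canalicular transporter Abcc2 (0.78 ± 0.17, 0.00853) rose in E2F1 knockout. Cyp2b10, the usual CAR target, fell by 1.87 ± 0.54 (0.0298) there and by 4.53 ± 0.54 (0.000344) in E2f2-labelled livers. In the latter Por (1.79, 0.00435) and Abcc2 (0.62, 0.0232) rose, and Abcc3 fell by 0.98 (0.0185). This made 3 of 8 higher and 1 lower in E2F1 knockout, with a median of 0.52, and 2 higher and 2 lower in E2f2-labelled livers, with a median of 0.19.

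Among 10 tested ester and epoxide hydrolases of other families, 4 rose and 1 fell in each comparison. Ephx2, soluble epoxide hydrolase, rose by 1.78 ± 0.34 (adjusted p = 0.00509) in E2F1 knockout livers and 1.72 ± 0.34 (0.00576) in E2f2-labelled livers. Cmbl rose by 1.20 (0.00285) and 0.91 (0.00857), and Bphl by 1.06 (0.00459) and 0.63 (0.0402). Afmid, kynurenine formamidase, rose in E2F1 knockout (1.36, 0.0164; 0.65, 0.192 in E2f2-labelled livers), and Pon3 rose in E2f2-labelled livers (0.49, 0.0154; 0.34, 0.0643 in E2F1 knockout). Bche, butyrylcholinesterase, fell by 0.55 (0.0406) and 0.83 (0.0067). The medians were 0.76 and 0.56.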

How the data were processed

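RNA from 12 livers (3 groups of 4, taken from the sample titles) was hybridised to 1-colour Agilent arrays, 1 per liver, and scanned signals were extracted with software (Agilent Feature Extraction, version 10.7.3.1) named in the submitters' processing notes. The intensity that the authors deposited has its background subtracted, per the file headers. The deposited series matrix holds log2 values whose columns share 1 median (3.84); no label says how the authors made it, and it served as an alternative.

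Outlier and control spots were dropped and the spots of a probe averaged. Values are log2 signal minus the array's 75th percentile. Probes needed a signal well above background on 3 or more of the 4 arrays in any group, and the brightest tested probe stood for a gene; all 10 carboxylesterase genes passed on 12 of 12 arrays. limma 3.58.1 (R 4.3.3) fitted all 12 arrays together without covariates (9 residual degrees of freedom, prior 3.13). Benjamini-Hochberg adjusted p under 0.05 over all genes was called. The fit was tested on simulated data. Alternatives were normexp (offset 50), quantile or median scaling, the series matrix, other probe filters and summaries, outlier spots kept, the slide as a block, array weights and each array left out. The number of arrays limits precision, and the labels do not say more of the mice than that each array is a separate sample.

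The genes and lists were chosen with earlier results of these data known. All 10 genes are named, and of each pathway list the genes past the threshold. The marker lists shown are given by sums, some with counts. The macrophage, endothelial, stellate, T and NK, B cell, neutrophil and kidney tubule marker lists were also measured and are not shown. Slides were read from the array identifiers in the file names. Names came from accessions through a RefSeq gene table; probe positions are in mm9, as in the files, and promoters are from RefSeq (GRCm38.p6).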

Additional observations from a re-analysis of the deposited data

Results flagged for a closer look

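In the 30 sets of 4 livers (10 genes in 3 groups), the brightest Ces2c probe in E2F1 knockout livers had a sample far from the others by Dixon's test. Replicate 3 gave 6.405, against 5.68 to 5.79 in the other 3 livers, a gap of 0.851 of the range where 0.829 is the 95% critical value. Chance flags about 1 in 20 such sets. Its other probes gave 1.52 and 2.84 in this liver, against 1.01 and 2.24 in replicate 1, 1.39 and 2.88 in replicate 2 and 0.14 and 1.52 in replicate 4, and the cause was not tested.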

How the results depend on the processing

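The number of genes called in E2F1 knockout (8) was 5 without a filter on dim probes and 5 to 9 when a single array was left out. Calls over all genes were then 2789 and 2538 to 4897, in place of 4234. In E2f2-labelled livers (6) it was 3 under quantile normalization, 3 with the series matrix values, 3 without the filter and 3 to 8 with an array left out. Calls over all genes were then 3822, 3805, 2989 and 2754 to 5279, in place of 4565. The Ces1g difference between E2f2-labelled and E2F1 knockout livers (-3.72) was -2.97 with normexp and -3.94 to -3.55 with an array left out. Opposite signs arose for Ces2c in E2F1 knockout with the mean of its probes (-0.13), for Ces2c in E2f2-labelled livers without replicate 1 (0.14), and for Ces1g in E2f2-labelled livers without wild type replicate 1 (-0.04) or 2 (-0.32) or E2f2-labelled replicate 4 (-0.005); none of these was called. With an array left out, Ces1g in E2f2-labelled livers ranged from -0.32 to 0.68 and Ces2c from -0.36 to 0.14. Of 440 values of single genes under the alternatives, 372 kept direction and call, 56 lost the call, 7 gained it and 5 changed sign.

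With the slide, which is the replicate number, as a block, 7 genes were called in E2F1 knockout livers and 8 in E2f2-labelled livers, and 5487 and 6295 of all genes in place of 4234 and 4565. Of 12 pairs of arrays with the same number, 10 correlated above 0.1 in their deviations from the group means (r from 0.04 to 0.42). Likewise, 11 of 12 arrays correlated best with their own number. That arrays of a number share a slide comes from the array identifiers and not from the labels. With array weights 8 and 8 genes were called, and 5323 and 6527 of all genes. Normexp gave 3560 and 3551 of all genes, and no filter 2789 and 2989; the cause was not tested, although no filter means 34607 genes tested. All 10 genes lay well above background on every array by their brightest probe. Among the other values given, dimness limits the second Ces2e probe, Ces4a, Pnpla3, Rem1, Msmp, Sult2a1, Cux2 and Cdh17.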
